A study of Mus musculus with 6 samples.

Results

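The genes described here take up glucose, turn it over at its first and last steps in the cell, or respond to it: the glucose transporters *Slc2a2*, *Slc2a1* and *Slc2a3*, the enzymes *G6pc2* and *Pklr*, the transcription factor *Mlxipl* and the glucose-induced gene *Txnip*. They are 7 of the 45616 genes and transcripts tested, and were chosen by name, with earlier results of these data known. Their 11 probes, of 56605 on the array that are not controls, were found through the RefSeq transcript each probe is listed under, and 4 of the 7 genes have more than 1 probe. *Slc2a2* and *Pklr* were also picked by the study from these samples for a heat map of β-cell maturation genes, so that their direction is not independent evidence. Both sorted populations came from the islets of postnatal day 1 (P1) *Wnt4eGFPCre;mTmG* pups, crossed to C57BL/6J. By the study's methods all cells carried both alleles: an EGFP/Cre insertion at *Wnt4*, and a ROSA26 reporter that replaces membrane tdTomato with membrane GFP (mGFP) once Cre has acted. A supplementary caption of the study instead labels 1 group of this comparison *Wnt4eGFPCre* Tg−, that is, without the *Wnt4* insertion. Wnt4hi stands for mGFP+ islet cells and Wnt4low for mGFP− islet cells, so that the sort reads past *Wnt4* expression in any islet cell type, not its present level. Each of the 6 single-colour Agilent arrays received 1 pool of islets from 3 or 4 pups, with 3 arrays per population: Wnt4hi replicates 2, 3 and 4 and Wnt4low replicates 1, 3 and 4. The p-values given measure the spread between these pools.

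Glucose enters cells through facilitative transporters of the GLUT family. GLUT2, encoded by *Slc2a2*, has a low affinity and is the main transporter of mouse β-cells, hepatocytes and renal tubule cells, whereas GLUT1 (*Slc2a1*) and GLUT3 (*Slc2a3*) have a high affinity and supply erythrocytes, endothelial cells of the blood-brain barrier, neurons and many dividing cells. In the β-cell, glucose is phosphorylated and passed through glycolysis, and the ATP made from it closes potassium channels and triggers insulin release. ChREBP, the product of *Mlxipl*, is a transcription factor activated by glucose metabolites. With its partner MLX it binds carbohydrate response elements, of which the best known lie in the promoters of *Pklr* and *Txnip*.

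Of the 59305 spots that are not controls, 70.5% to 79.5% were well above background on each array, and 0 were saturated. *Wnt4* itself was at log2 11.20, 10.53 and 10.77 on the Wnt4hi arrays and at 9.85, 10.10 and 9.31 on the Wnt4low arrays, so that the labels and the gene ran the same way (difference 1.08 on the log2 scale, limma unadjusted p = 0.00694, adjusted p = 0.210). All 11 member probes were read from 1 spot each, and 8 of them cleared the background on every array. *Ins1*, the insulin gene that marks β-cells, was at 16.12 to 16.99 over the 6 arrays. Probes are named brighter and other by their mean over the 6 arrays, and levels of different probes cannot be compared with each other. In the text a level is a log2 normalized intensity, and a difference is the mean of the Wnt4hi arrays minus the mean of the Wnt4low arrays on that log2 scale. A gene was called at an unadjusted p under 0.05 in limma, the threshold of the study, and p-values were also adjusted over all genes. With 3 arrays against 3, an exact permutation test cannot go below 0.1 (two-sided), so the calls rest on the fit over all genes.

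Among the transporters, *Slc2a2* was higher in Wnt4hi, whereas *Slc2a1* and *Slc2a3* were lower, and for each of these 3 genes the populations did not overlap. Over the 7 genes, 3 were called higher in Wnt4hi (*Slc2a2*, *Pklr* and *Mlxipl*), against 5.06% of all genes tested, and 2 were called lower (*Slc2a1* and *Slc2a3*), against 5.53% of all genes. 0 of the 7 passed after Benjamini-Hochberg adjustment, with a lowest adjusted p of 0.0817, against 0.441% of all genes. Arrays of the populations did not overlap for 3 members that were higher (*Slc2a2*, *G6pc2* and *Mlxipl*), against 9.63% of genes, and for 2 that were lower, against 6.44%. The median difference was 0.64 over the 7 members and 0.073 over all genes. Seen by probe, 7 of 11 were called in a fit over all probes, 3 higher and 4 lower, against 4.88% and 6.12% of all probes.

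**Figure D1:**
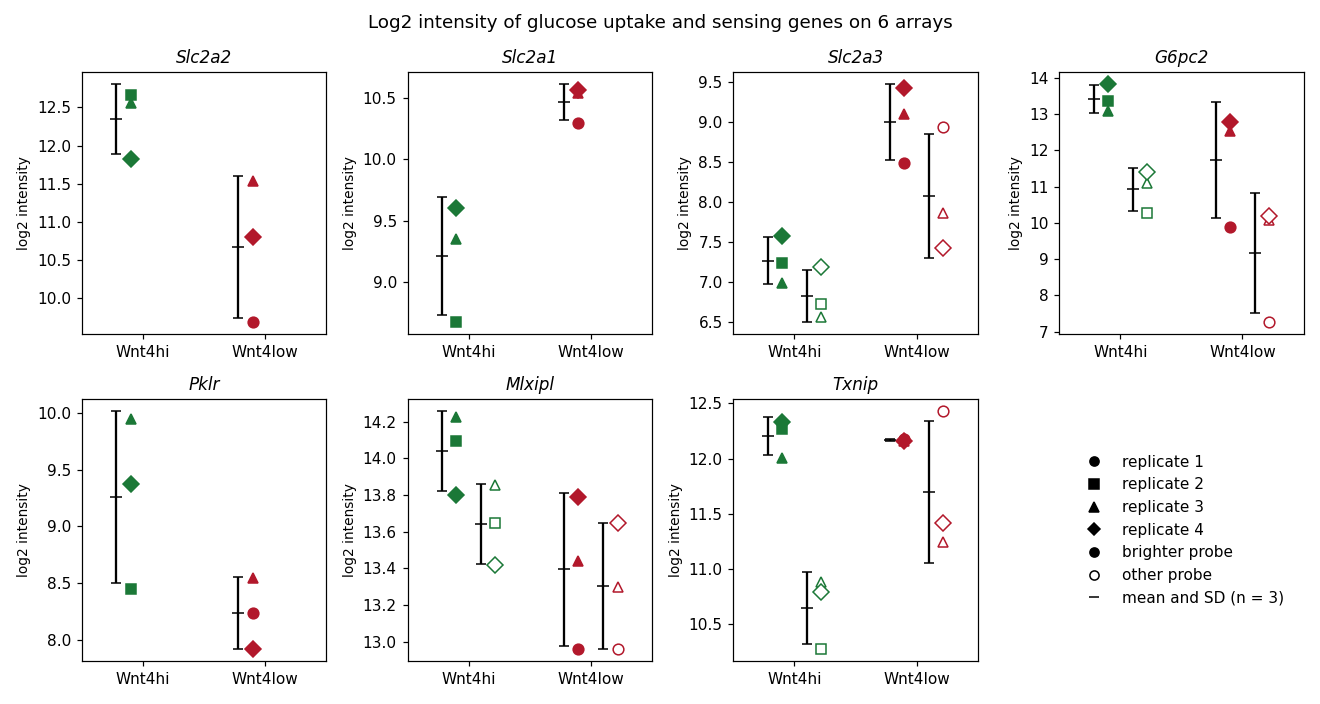
Log2 normalized intensity (y axis, a separate range in each panel) of each member on the 6 arrays, by population (x axis). Filled symbols are the brighter probe, open symbols the other probe, shapes the replicate numbers, and bars the mean ± SD of 3 arrays. The Wnt4low replicate 1 circle is the lowest of the filled symbols for *Slc2a2* and *G6pc2*, and the probes of *Txnip* differ in their pattern.

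*Slc2a2* (NM_031197) was at 12.67, 12.56 and 11.82 on Wnt4hi arrays 2, 3 and 4. It was at 9.69, 11.53 and 10.80 on Wnt4low arrays 1, 3 and 4. Every Wnt4hi array lay above every Wnt4low array, with a gap of 0.29 between the nearest, and the lowest value was that of Wnt4low 1. The means of 12.35 ± 0.46 (SD, n = 3) and 10.67 ± 0.93 (SD, n = 3) differed by 1.68 (SE 0.50, 95% interval 0.47 to 2.88), or 3.19-fold (limma unadjusted p = 0.0143, adjusted p = 0.289). Without Wnt4low 1 the difference was 1.16 (unadjusted p = 0.0213), and without both Wnt4low 1 and Wnt4hi 2 it was 1.01, at the threshold (unadjusted p = 0.0484 in the fit over genes and 0.0504 in the fit over probes).

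*Slc2a1* (NM_011400) was at 8.67, 9.35 and 9.60 on the Wnt4hi arrays and at 10.29, 10.54 and 10.56 on the Wnt4low arrays. The Wnt4low arrays lay close together and all above the Wnt4hi arrays, by at least 0.69, and Wnt4hi 2 was the lowest of all. The means of 9.21 ± 0.48 and 10.47 ± 0.15 (SD, n = 3 each) differed by −1.26 (SE 0.26, 95% interval −1.89 to −0.62), a level 2.39-fold lower in Wnt4hi (limma unadjusted p = 0.00271, adjusted p = 0.139). The call was kept without each of the 6 arrays in turn, with differences from −1.45 to −0.98.

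*Slc2a3* (NM_011401) had the lowest p of the members. Its brighter probe was at 7.24, 6.99 and 7.57 on the Wnt4hi arrays, where it was well above background on 0 of 3 arrays. On the Wnt4low arrays it was at 8.49, 9.10 and 9.43 and well above background on all 3. Before normalization the spot was 4.28, 4.76 and 5.04 times its local background on the Wnt4hi arrays and 15.3, 21.2 and 24.8 times on the Wnt4low arrays. The level in Wnt4hi is therefore uncertain. The gene was 3.18-fold lower in Wnt4hi when each Wnt4hi array entered at its lowest signal well above background, or at the measured value where higher. This is not a strict bound, because spots brighter than that signal can fail the flag, as this probe did on Wnt4hi 3 (6.986 against 6.976). The measured means of 7.27 ± 0.30 and 9.005 ± 0.48 (SD, n = 3 each) differed by −1.74 (SE 0.28, 95% interval −2.43 to −1.05, limma unadjusted p = 0.000789, adjusted p = 0.0817).

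The other *Slc2a3* probe was at 6.72, 6.56 and 7.19 on the Wnt4hi arrays, again well above background on 0 of 3, and at 8.94, 7.86 and 7.43 on the Wnt4low arrays, where 2 of 3 were well above background. Here too the populations did not overlap, but the order within Wnt4low was turned: Wnt4low 1 was the highest by this probe and the lowest by the brighter one. The difference was −1.25 (SE 0.41, limma unadjusted p = 0.0217, adjusted p = 0.327). Counted in the same way, with the dim Wnt4low array at its own value, the level was 1.67-fold lower in Wnt4hi, again not a strict bound. The call of this probe was lost without Wnt4hi 2 (−1.20, unadjusted p = 0.0527) and without Wnt4hi 3 (−1.11, unadjusted p = 0.0685), and without Wnt4low 1 the difference was −0.81 (unadjusted p = 0.0254).

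Among the 9 other GLUT transporters measured, 1 was called higher and 2 lower, with a median difference of 0.12 (0.059 without Wnt4low 4). *Slc2a5*, the fructose transporter GLUT5, was at 12.15, 11.43 and 11.66 in Wnt4hi and at 8.20, 10.49 and 10.49 in Wnt4low. Like *Slc2a2* it did not overlap and was lowest on Wnt4low 1. It differed by 2.02 (SE 0.65, limma unadjusted p = 0.0201, adjusted p = 0.333), by 1.25 without Wnt4low 1 (unadjusted p = 0.00358) and by 1.81 without Wnt4hi 2, where the call was lost (unadjusted p = 0.0554). *Slc2a4*, the insulin-responsive transporter GLUT4 of muscle and fat, was lower in Wnt4hi (means 9.33 and 10.56, difference −1.23, SE 0.30, unadjusted p = 0.00634, adjusted p = 0.203). *Slc2a10*, which encodes GLUT10, was lower as well (means 9.005 and 9.63, difference −0.62, SE 0.15, unadjusted p = 0.00566, adjusted p = 0.194). 0 of the 7 sodium-coupled sugar transporters were called (1 without Wnt4low 1), with a median difference of 0.074, and 2 of them, *Slc5a1* and *Slc5a4b*, were well above background on 0 arrays.

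**Figure D2:**
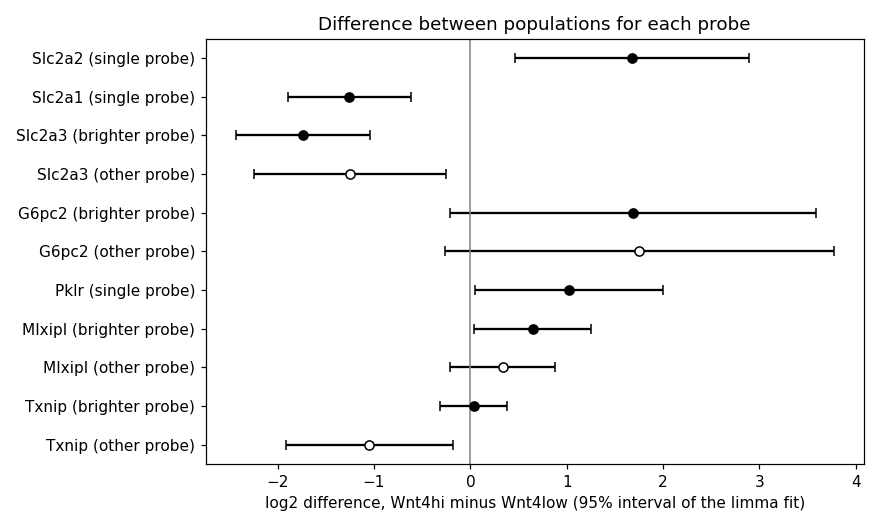
Difference of each of the 11 member probes, Wnt4hi minus Wnt4low, on the log2 scale (x axis) with its 95% interval from the limma fit over all probes. Filled points are the single or brighter probe of a gene and open points the other probe. The intervals of *G6pc2* are the widest, and the probes of *Txnip* stand at 0.034 and −1.05.

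*G6pc2* encodes the islet-specific glucose-6-phosphatase catalytic subunit, which returns glucose 6-phosphate to glucose and so opposes the first step of glycolysis. The brighter probe (NM_021331) was at 13.36, 13.08 and 13.84 on the Wnt4hi arrays and at 9.88, 12.55 and 12.78 on the Wnt4low arrays. The populations did not overlap, but Wnt4low 1 stood far below the rest, at −2.78 from the mean of the other Wnt4low arrays. The means of 13.43 ± 0.38 and 11.74 ± 1.61 (SD, n = 3 each) differed by 1.69 (SE 0.78, 95% interval −0.20 to 3.58) and the gene was not called (limma unadjusted p = 0.0717, adjusted p = 0.536). Without Wnt4low 1 the difference was smaller, 0.75, but its standard error fell to 0.26 and the threshold was passed (unadjusted p = 0.0347, adjusted p = 0.493). Without Wnt4low 4 the difference was 2.21 (unadjusted p = 0.0408).

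The other *G6pc2* probe was at 10.27, 11.10 and 11.41 on the Wnt4hi arrays and at 7.26, 10.09 and 10.18 on the Wnt4low arrays, where it was well above background on 2 of 3. Here too the arrays did not overlap, with a gap of 0.092, and Wnt4low 1 lay far below the others. Its difference of 1.75 (SE 0.83, limma unadjusted p = 0.0781) was within 0.061 of that of the brighter probe. Without Wnt4low 1 it was 0.79 and, unlike the brighter probe, not called (unadjusted p = 0.0797).

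*Pklr* encodes the liver and erythrocyte form of pyruvate kinase, which makes pyruvate in the last step of glycolysis. Its probe (NM_013631) was at 8.45, 9.95 and 9.37 on the Wnt4hi arrays and at 8.24, 8.55 and 7.92 on the Wnt4low arrays. The populations overlapped: Wnt4hi 2 lay below Wnt4low 3, at −1.21 from the mean of the other Wnt4hi arrays. The means of 9.26 ± 0.76 and 8.24 ± 0.32 (SD, n = 3 each) differed by 1.02 (SE 0.40, 95% interval 0.05 to 1.99, limma unadjusted p = 0.0417, adjusted p = 0.443). The call rested on all arrays but Wnt4hi 2. Without that array the difference was 1.42 (unadjusted p = 0.00291). The threshold was missed without Wnt4hi 3 (0.68), Wnt4hi 4 (0.97), Wnt4low 1 (1.02), Wnt4low 3 (1.18) and Wnt4low 4 (0.87), at limma unadjusted p from 0.0522 to 0.121.

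Other genes that phosphorylate glucose or use glucose 6-phosphate did not share a direction: of 21 measured, 2 were called higher in Wnt4hi and 2 lower, with a median difference of 0.057. The higher ones were *Fbp1*, fructose-1,6-bisphosphatase of gluconeogenesis (means 10.28 and 8.76, difference 1.53, SE 0.31, limma unadjusted p = 0.00254, adjusted p = 0.134), and *Slc37a4*, which carries glucose 6-phosphate into the endoplasmic reticulum where glucose-6-phosphatase acts (means 10.61 and 9.09, difference 1.52, SE 0.39, unadjusted p = 0.00819, adjusted p = 0.224). The lower ones were both hexokinases of high affinity for glucose. *Hk1* was at 10.37, 8.45 and 8.89 in Wnt4hi and at 11.52, 11.16 and 10.93 in Wnt4low, with no overlap (difference −1.97, SE 0.50, limma unadjusted p = 0.00725, adjusted p = 0.214). *Hk2*, named here after its value was seen, was well above background on 0 Wnt4hi and 2 Wnt4low arrays. Counted as for *Slc2a3*, and so not as a strict bound, its level was 1.42-fold lower in Wnt4hi (measured means 6.51 and 7.84, limma unadjusted p = 0.00116, adjusted p = 0.0952). All 4 calls were kept without each array in turn. *Pkm*, the other pyruvate kinase gene, was not called (difference 0.40, unadjusted p = 0.135).

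**Figure D3:**
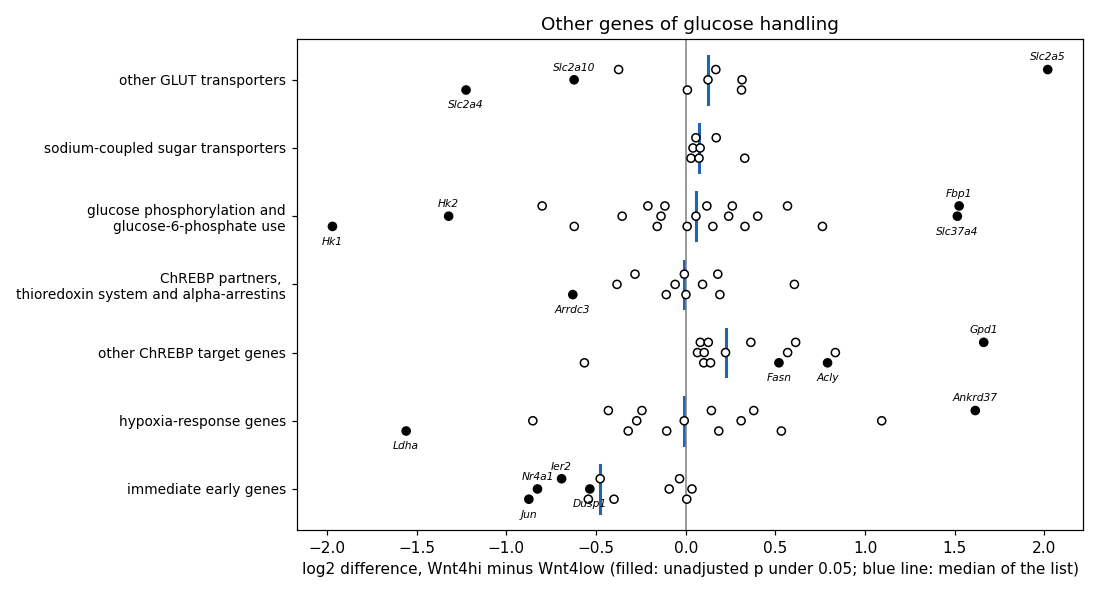
Difference of each measured gene of the 7 lists of related genes, Wnt4hi minus Wnt4low, on the log2 scale (x axis), 1 row per list. Filled points have an unadjusted p under 0.05 and are named, and the blue line is the median of the list. *Slc2a5* stands at 2.02 and *Hk1* at −1.97, while the list medians lie between −0.48 and 0.22.

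*Mlxipl* encodes ChREBP. The brighter probe (NM_021455) was at 14.10, 14.23 and 13.80 on the Wnt4hi arrays and at 12.96, 13.44 and 13.79 on the Wnt4low arrays. The populations did not overlap, but only by a gap of 0.011 between Wnt4hi 4 and Wnt4low 4. The means of 14.04 ± 0.22 and 13.40 ± 0.42 (SD, n = 3 each) differed by 0.64 (SE 0.25, 95% interval 0.04 to 1.25), or 1.56-fold (limma unadjusted p = 0.0392, adjusted p = 0.431). The other probe was at 13.65, 13.85 and 13.42 in Wnt4hi and at 12.96, 13.30 and 13.65 in Wnt4low. By this probe the populations overlapped and the gene was not called (difference 0.34, SE 0.22, 95% interval −0.21 to 0.88, limma unadjusted p = 0.181). Its difference was 0.17 without Wnt4low 1 and 0.50 without Wnt4low 4, and it was called in neither fit. The call of the brighter probe was lost without Wnt4low 1 (0.43), Wnt4hi 2 (0.61), Wnt4hi 3 (0.56) and Wnt4low 3 (0.67), at limma unadjusted p from 0.0776 to 0.114.

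*Txnip* encodes thioredoxin-interacting protein, an α-arrestin that binds thioredoxin, lowers glucose uptake and is induced by glucose through ChREBP. Its probes did not give the same result. The brighter probe (NM_001009935) was at 12.27, 12.01 and 12.33 on the Wnt4hi arrays and at 12.18, 12.16 and 12.16 on the Wnt4low arrays, with the Wnt4low arrays inside the range of the Wnt4hi arrays. Its difference was 0.034 (SE 0.14, 95% interval −0.30 to 0.37, limma unadjusted p = 0.816, adjusted p = 0.964). The other probe, listed under the same transcript, was at 10.27, 10.88 and 10.79 in Wnt4hi and at 12.43, 11.25 and 11.41 in Wnt4low. Here every Wnt4hi array lay below every Wnt4low array, by at least 0.37, and Wnt4low 1 was the highest. The difference was −1.05 (SE 0.36, 95% interval −1.92 to −0.18, limma unadjusted p = 0.0249, adjusted p = 0.344), which is 1.08 away from that of the brighter probe. Without Wnt4low 1 it was −0.68 (unadjusted p = 0.0340), and without Wnt4hi 2 the call was lost (−0.86, unadjusted p = 0.0735). Each of them cleared the background on all 6 arrays. Why they differ was not tested, and no direction is given for *Txnip*.

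The promoters of *Pklr* and *Txnip* are shown because they hold the paired carbohydrate response element through which ChREBP is known to act, while *Pklr* was called and *Txnip* by its brighter probe was not. The RefSeq table of promoters on the build GRCm38.p6, from 250 bases before to 50 bases after each start, held 9 promoters of 6 of the members. *Slc2a3* has no entry in it. The element was searched on both strands as CACGNG and CNCGNG with 5 bases between them. It was found in 2 of the 9, those of the genes already known for it, and in 0.365% of the 32851 promoters of the table. That share shows how common the letters are and gives no enrichment among the members. The match in *Pklr* fits the searched letters on either strand and lies in the promoter of the downstream start, chr3:89136373-89136672 on the plus strand, 170 to 154 bases before the start. That in *Txnip* lies in chr3:96557707-96558006 on the plus strand, 85 to 69 bases before the start. Capitals mark the match.
Pklr: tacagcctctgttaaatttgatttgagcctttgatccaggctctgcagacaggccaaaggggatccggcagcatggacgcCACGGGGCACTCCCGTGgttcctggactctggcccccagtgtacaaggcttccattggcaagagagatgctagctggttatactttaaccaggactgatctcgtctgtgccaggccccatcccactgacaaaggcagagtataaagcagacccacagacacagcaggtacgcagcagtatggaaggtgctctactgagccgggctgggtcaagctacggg
Txnip: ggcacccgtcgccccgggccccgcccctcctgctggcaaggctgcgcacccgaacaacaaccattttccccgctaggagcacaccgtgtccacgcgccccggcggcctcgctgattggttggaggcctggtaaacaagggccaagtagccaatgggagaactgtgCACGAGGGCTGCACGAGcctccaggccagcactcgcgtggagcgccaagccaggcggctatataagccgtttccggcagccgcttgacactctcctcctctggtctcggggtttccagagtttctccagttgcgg
The shorter letters CACGNG, which overlap the paired element and the E-box CACGTG, were found in 27.5% of all promoters. CACGTG itself was found in 7.15% of promoters and in 1 of the members', that of *Mlxipl* at chr5:135089640-135089939 on the plus strand, 98 to 93 bases before the start. The *Txnip* promoter also held the FOXA core TGTTTAC on the minus strand, 121 to 115 bases before the start, which 3.65% of promoters hold. GTTAAT, part of an HNF1 site and found in 7.1% of promoters, was in 0 of the members' windows. Only these exact letters were searched, so HNF1 sites that depart from them would not be found. These are matches of letters in a window and not evidence of binding.

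Of 15 other genes known as ChREBP targets, 3 were called higher in Wnt4hi and 0 lower. The count was 1 without Wnt4low 1 or Wnt4hi 3. The median was 0.22 (0.34 without Wnt4hi 2 and 0.40 without Wnt4low 3), against 0.073 over all genes. *Gpd1*, glycerol-3-phosphate dehydrogenase, was at 11.54, 11.41 and 11.78 in Wnt4hi and at 10.35, 10.03 and 9.37 in Wnt4low. The populations did not overlap (difference 1.66, SE 0.27, limma unadjusted p = 0.00083, adjusted p = 0.0826), and the call was kept without each array in turn. *Acly*, ATP citrate lyase (difference 0.79, SE 0.27, limma unadjusted p = 0.0253, adjusted p = 0.362), and *Fasn*, fatty acid synthase (difference 0.52, SE 0.21, unadjusted p = 0.0483, adjusted p = 0.467), were called by less. The call of *Acly* was lost without Wnt4low 1 (0.71), Wnt4low 4 (0.63) or Wnt4hi 3 (0.60). That of *Fasn* was lost without Wnt4low 1 (0.40), Wnt4low 3 (0.51), Wnt4hi 3 (0.56) or Wnt4hi 4 (0.36). *Rgs16*, a regulator of G protein signalling, was not called (difference −0.56, unadjusted p = 0.0949).

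Of 11 partners of ChREBP, thioredoxin genes and α-arrestins, 0 were called higher and 1 lower, with a median difference of −0.0075. *Mlx*, the partner of ChREBP, was not called (difference 0.19, SE 0.83, limma unadjusted p = 0.826), nor was *Arrdc4*, an α-arrestin that glucose also induces (difference −0.11, SE 0.24, unadjusted p = 0.669). The 1 call was *Arrdc3* (means 11.62 and 12.25, difference −0.63, SE 0.23, unadjusted p = 0.0335, adjusted p = 0.406), which was lost without Wnt4hi 3 (−0.45) or Wnt4low 4 (−0.47). Without Wnt4low 1, 2 genes of the list were called higher.

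Among 15 hypoxia-response genes 1 was called higher and 1 lower, with a median difference of −0.0082, and without 1 array in turn 1 to 3 were called higher (3 without Wnt4hi 2 or Wnt4low 3) and 1 or 2 lower (2 without Wnt4hi 2, Wnt4hi 4, Wnt4low 3 or Wnt4low 4). *Ldha*, which encodes the muscle-type lactate dehydrogenase subunit that is very low in mature β-cells, was at 12.12, 10.64 and 11.07 in Wnt4hi and at 12.83, 12.74 and 12.93 in Wnt4low. The populations did not overlap (difference −1.56, SE 0.38, limma unadjusted p = 0.00571, adjusted p = 0.194). *Ankrd37*, a hypoxia-inducible ankyrin repeat gene, was higher in Wnt4hi (difference 1.62, SE 0.40, unadjusted p = 0.00667, adjusted p = 0.207). Of 11 immediate early genes, which respond within minutes to stimulation and to cell handling, 0 were called higher and 4 lower (2 without Wnt4low 3), with a median of −0.48. They were *Jun* (−0.87), *Nr4a1* (−0.83), *Ier2* (−0.69) and *Dusp1* (−0.53), at adjusted p from 0.101 to 0.387, and *Fos* (−0.03, unadjusted p = 0.911) and *Egr1* (−0.40, unadjusted p = 0.331) were not called. The calls of *Ier2* and *Dusp1* were kept in 2 and 4 of the 6 fits that left out 1 array.

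Markers of other islet cell types differed between the populations as well. Of 12 endothelial markers, 0 were called higher and 11 lower in Wnt4hi, 8 of them after adjustment, with a median difference of −3.79. The summed intensity of the list was 4725 to 7421 on the Wnt4hi arrays and 40748 to 78860 on the Wnt4low arrays, and *Tek* and *Tie1* were well above background on 0 Wnt4hi arrays. *Plvap*, a protein of fenestrated endothelium, was at 8.82, 9.05 and 8.78 in Wnt4hi and at 13.79, 12.49 and 12.68 in Wnt4low. Of 10 pericyte and fibroblast markers, 0 were called higher and 7 lower (median −1.18, summed intensity 35445 to 67858 and 83532 to 110650). Of 11 leukocyte markers, 0 were called higher, 5 lower and 6 not called (median −0.57), with summed intensities of 66212 to 77888 and 73638 to 100908, which are mostly those of *Itgam* (difference −0.087, unadjusted p = 0.667). *Col3a1*, a fibrillar collagen (difference −1.18), and *Tyrobp*, a signalling adaptor of myeloid cells (difference −1.67), were among those called. The number of pericyte and fibroblast markers called was 2 to 4 without Wnt4hi 3, Wnt4hi 4 or any Wnt4low array, while 11 endothelial markers were called without each array in turn. Of 12 erythroid genes measured, 0 were called higher and 5 lower, all 5 of them α- or β-globin genes, close copies of each other within either family, and *Klf1* was not called (summed intensity 5097 to 9251 and 8744 to 22530). *Slc2a1* and *Slc2a3* were lower in the same population. In these bulk samples fewer cells of a type and less RNA per cell cannot be told apart, and the part of such cells in either difference was not tested.

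Endocrine markers did not share a direction. Of 10 β-cell markers, 7 were called higher in Wnt4hi and 0 lower, with a median of 1.16 (4 calls without Wnt4hi 4, and 1 without Wnt4low 1 and Wnt4hi 2 together), and their summed intensity was 322195 to 327796 in Wnt4hi and 190290 to 290327 in Wnt4low. *Mafa* was not called (difference −0.05, unadjusted p = 0.763). Of 6 α-cell markers, 3 were called higher and 0 lower, with a median of 1.77 (1.09 without Wnt4low 1, and 2 calls without Wnt4hi 3 or Wnt4hi 4). Their summed intensity was 76870 to 117011 in Wnt4hi and 13332 to 65055 in Wnt4low. Among 5 δ, PP and ε cell markers, *Ppy* and *Ghrl* were called higher and *Sst* and *Hhex* lower (1 lower without Wnt4hi 2, Wnt4hi 3 or Wnt4low 1). Both the β-cell and the α-cell sums were lowest on Wnt4low 1, the array on which *Slc2a2*, *G6pc2* and *Mlxipl* were lowest, and the endothelial sum was highest there. The share of these marker changes in the differences of *Slc2a2*, *G6pc2* and *Mlxipl* was not tested. Acinar (0 higher and 1 lower of 8, summed intensity 6342 to 9893 and 6063 to 32491), ductal (0 and 1 of 6, 8969 to 11423 and 8432 to 16537) and Schwann cell markers (0 and 1 of 5, 3190 to 3651 and 3976 to 4800) had 1 call each. Without Wnt4low 1, which had the lowest acinar sum, 4 acinar markers were called lower, and without any of the other arrays but Wnt4hi 2 the count was 0. Ductal markers had 2 lower calls without Wnt4low 3 or Wnt4low 4 (with 1 higher in the latter), and Schwann cell markers had 2 without Wnt4hi 2 or Wnt4hi 4.

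**Figure D4:**
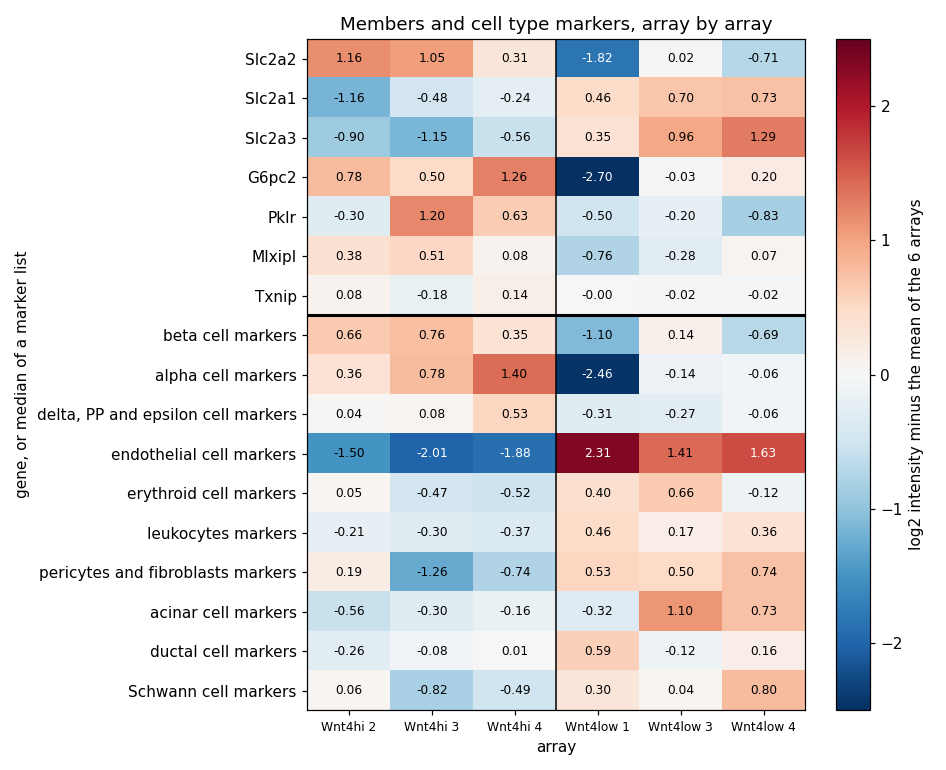
Each member (brighter or single probe) and the median of each marker list on the 6 arrays, as log2 normalized intensity minus the mean of the 6 arrays (color scale; values printed in the cells). On Wnt4low 1, *Slc2a2* stands at −1.82 and *G6pc2* at −2.70, beside −1.10 for the β-cell, −2.46 for the α-cell and 2.31 for the endothelial markers.

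Array by array, the members did not vary as a block. On Wnt4low 1, relative to the mean of the other Wnt4low arrays, *G6pc2* stood at −2.78, *Slc2a2* at −1.48, *Slc2a3* at −0.77, *Mlxipl* at −0.66 and *Slc2a1* at −0.26. On this array *Slc2a1* and the brighter probe of *Slc2a3* were thus the lowest of Wnt4low, and the other probe of *Slc2a3* the highest. Within Wnt4low it had the highest endothelial sum (78860) and the lowest pericyte and fibroblast sum (83532), with the erythroid sum (18048) in between. Whether these sums and the genes are linked was not tested. On Wnt4hi 2, *Pklr* (−1.21) and *Slc2a1* (−0.80) were lower than on the other Wnt4hi arrays, while *Slc2a2* was higher (0.48).

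For each member the genes with the most similar pattern were taken from 16152 others, by the root mean square (RMS) of the difference between log2 values centred over the 6 arrays. For *Slc2a2* they were *Myt1*, a transcription factor of endocrine progenitors and islet cells, *Ociad2* and *Lrp11* (RMS 0.25 each, against a median of 1.04 over all candidates). For *G6pc2* they were *Sphkap* (0.24), *Ttr*, the transthyretin gene and an α-cell marker of the list above (0.30), and *Cep70* (0.33), against a median of 1.30. *Slc2a1* was nearest to *Cyren* (0.067), *Kif1c* (0.094) and *Klf12* (0.10), and *Slc2a3* to *Dkk3*, *Pid1* and *Casq2* (all 0.18). *Mlxipl* was nearest to *Arfrp1* (0.055), *Dcaf7* (0.078) and *N4bp2* (0.099), *Pklr* was near to *Cdc5l* (0.15) and *Akr1c13* (0.17), and *Txnip* by its brighter probe to *Tomm6os*, *Crnn* and *Myh6*, whose values hardly moved. With 6 arrays of 2 populations these are descriptions.

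**Figure D5:**
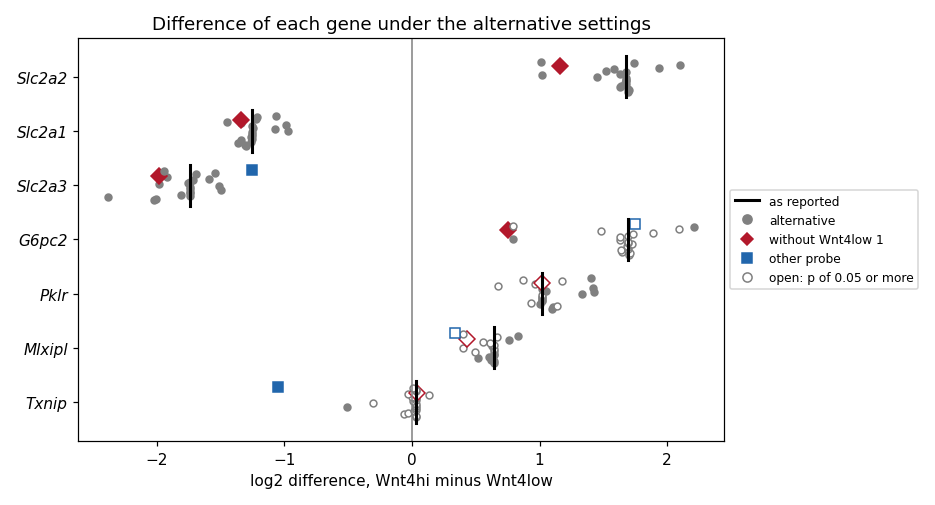
Difference of each member, Wnt4hi minus Wnt4low, on the log2 scale (x axis), as reported (black bar) and under each alternative setting (points, open where the unadjusted p is 0.05 or more). Red diamonds leave out Wnt4low 1 and blue squares use the other probe. *Slc2a2*, *Slc2a1* and *Slc2a3* keep their side of 0 with filled points, and *Txnip* crosses 0.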

How the data were processed

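P1 islet cells of *Wnt4eGFPCre;mTmG* pups, sorted by mGFP, were hybridised to 6 Agilent SurePrint G3 Mouse v2 arrays (Cy5), all on 1 slide, so that no batch was tested. Groups and replicate numbers were taken from the sample labels. The authors deposited red-channel intensities of spots and local background, not normalized, read with Agilent Feature Extraction (version 9.1 per the submitters' processing notes). The headers of the scans name another version. A second deposited table, used as an alternative, holds the authors' own normalized log2 values, and in it the Wnt4hi 2 column followed its array little better (r = 0.904) than another column did (r = 0.901), at a median absolute difference of 0.254 against 0.0802 to 0.110 for the other arrays, so that it may hold another sample.

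Median intensities were corrected with normexp (offset 50), log2 transformed and quantile normalized in limma (version 3.58.1, R 4.3.3). Control spots and outlier spots (50 to 141 per array) were left out. Of 35886 RefSeq-type probe names, 32994 matched a RefSeq table (GRCm38.p6), used for names only because the array's annotation is on another build. The probe with the highest mean stood for a gene. Populations were compared with lmFit and eBayes over all 45616 genes and over all 56605 probes, with Benjamini-Hochberg adjustment. For folds of dim probes, an array of the lower population entered at the lowest signal well above background on it, or at its own value where that was higher. Arrays of the higher population entered at their own values, dim or not. These folds are rough and not strict bounds. The calculation was tested on simulated data.

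Named from the lists were at most 4 called genes per pathway list, well above background on the higher arrays, and examples from 10 marker lists; genes named beside these were chosen after their values were seen. The members and lists were chosen with earlier results of these data known. The number of arrays limits precision. The comparison of transporter proteins was not run. Some genes that the naming rule picked are not reported here.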

Additional observations from a re-analysis of the deposited data

How the results depend on the processing

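Over 21 alternatives (background correction, scaling, dim or outlier spots, probe summary, variance model, the authors' table, blocks, arrays left out), *Slc2a2* (1.01 to 2.10), *Slc2a1* (−1.45 to −0.97) and *Slc2a3* (−2.38 to −1.50) kept direction and call in each fit over genes (over probes *Slc2a2* was called in 18 of 19), while *Pklr* (0.68 to 1.43) was called in 13, *Mlxipl* (0.40 to 0.83) in 11 of 20 and *G6pc2* (0.75 to 2.21) in 3. Adjusted p fell under 0.05 for *Slc2a3* with the filter on dim probes (0.0402, 31996 genes tested), the mean of all probes (0.0446) and the authors' table (0.0318). The filter kept *Slc2a3* only through the Wnt4low arrays, where it was higher, so its adjusted p there adds no support. For *Slc2a1* the adjusted p fell under 0.05 with the authors' table (0.0428). There the Wnt4hi 2 column, which may hold another sample, gives *Slc2a1* as 9.64 and not 8.67. The difference of *Txnip* turned negative with the processed signal (−0.061), median centring (−0.028), the mean of all probes (−0.51, unadjusted p = 0.0419, so that 3 members were called lower, not 2), the authors' table (−0.30), without Wnt4hi 2 (−0.00061), without Wnt4hi 4 (−0.029, the lowest without 1 array, with 0.13 the highest) and by the other probe (−1.05). The cause was not tested. An unpaired t-test, which the study used for other measurements and not for its arrays, called 1 member higher, 2 lower and 3 probes. Without each array in turn, 1 to 3 members were called higher (1 without Wnt4hi 3 or Wnt4low 3, *Slc2a2* in both), 2 lower, and 4 to 7 probes (4 without Wnt4hi 2 or Wnt4hi 3). Without Wnt4low 1 and Wnt4hi 2 together, chosen after seeing the data as the other probe was, 4 probes were called. Where an arm is left with 2 arrays, the spread is pooled by the fit. Dim *Slc2a3* spots leave its level in Wnt4hi uncertain. List medians near 0 changed sign with the scaling for glucose phosphorylation (−0.028, cyclic loess) and hypoxia (0.0075, median centring), and with 1 array left out for glucose phosphorylation (−0.0034 without Wnt4hi 3, up to 0.16), sodium-coupled transporters (−0.013 without Wnt4low 4, up to 0.18 without Wnt4low 1), ChREBP partners (−0.11 without Wnt4low 3 to 0.013 without Wnt4hi 2) and hypoxia (−0.079 without Wnt4hi 4 to 0.13 without Wnt4hi 3).

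The populations share only replicate numbers 3 and 4. The labels do not say whether a number marks a shared pool, so the main fit assumed no pairing. Deviations from the group means correlated at −0.055 and 0.20 for them, the latter the highest between any Wnt4hi and Wnt4low array. These values cannot decide whether the samples are paired, because each group mean covers few arrays and includes an unmatched one. With replicate number as fixed block, *Slc2a2* (1.02), *G6pc2* (0.80) and *Pklr* (1.43) were called higher and *Slc2a1* (−1.07) and *Slc2a3* (−1.98) lower, while *Mlxipl* was not (0.40, limma unadjusted p = 0.236). A random block changed no call, and Wnt4hi 2 with Wnt4low 1 as a further pair, chosen after seeing the data, lost that of *Mlxipl* (unadjusted p = 0.0684).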
